A study of Rattus norvegicus with 12 samples.

Results

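Arachidonic acid, freed from membrane phospholipids by phospholipases A2, is turned into signaling lipids along separate enzyme branches. Lipoxygenases insert oxygen into the fatty acid chain and lead to hydroxy fatty acids and leukotrienes, while the cyclooxygenases make prostaglandin H, which terminal synthases then convert into prostaglandin E, prostacyclin or prostaglandin D. In cartilage these lipids are known mainly from inflamed and mechanically loaded joints, where prostaglandin E affects matrix synthesis and breakdown, and the cells that make them in a growing joint include chondrocytes as well as macrophages and vessel wall cells. The 9 genes described here are those of the lipoxygenase side, Alox12, Alox15, Alox5 and Alox5ap, and of prostaglandin synthesis, Ptgs1, Ptgs2, Ptges, Ptgis and Ptgds. They were chosen by name, and each was read from the brightest array transcript cluster that carries its symbol. They are 9 of the 14300 genes that have a cluster with a single symbol. The study's own gene lists, drawn from these same arrays, hold Alox12, Alox5ap, Ptgs1, Ptgis and Ptgds, so the values below are no independent evidence for those lists. The study also counts Alox12, as higher in the intermediate/deep zone, and Ptgis, as higher in the superficial zone, among published hypertrophic zone markers of the growth plate.

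The samples were cartilage of the proximal tibial epiphysis of 10-day-old Sprague-Dawley rats, cut by hand from stained sections into the superficial zone (SZ) and the intermediate/deep zone (IDZ) of the articular cartilage and the resting zone (RZ) of the growth plate. Each zone was measured on 4 arrays. An SZ sample held both tibias of 1 animal, whereas an IDZ or RZ sample pooled 4 tibias of 2 animals. The animals of SZ replicates 1 and 2 were also those of IDZ and RZ replicate 3, those of SZ replicates 3 and 4 also those of IDZ and RZ replicate 4, and no strain, genotype or treatment differed between the zones. Zones were cut by cell shape and staining, with a strip between adjacent zones thrown away, so each sample is a region of tissue and not a purified cell type.

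Chondrocyte markers were bright in all 3 zones. The mean log2 signal over 8 chondrocyte genes lay at 11.74 to 12.08 in SZ, 12.83 to 12.90 in IDZ and 12.77 to 12.93 in RZ, and 7 of the 8 were higher in IDZ than in SZ. SZ also carried the signals of other tissues, and because these are bulk samples, fewer cells of a type and less RNA per cell cannot be told apart. The array SZ replicate 4 stood apart, with an interquartile range of 2.24 on the log2 scale against 2.50 to 2.91 on the other 11 arrays, and it held the lowest SZ signal for 7 of the 9 genes, all but Alox5 and Ptges. Array medians lay between 6.76 and 6.90.

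The sequences before the start of some of these genes are given first. RefSeq (assembly GRCr8) gave a promoter window for 6 of the 9 genes, all but Alox15, Alox5ap and Ptgis. Both cyclooxygenase genes are printed because both had their lowest signal in IDZ, and Alox12 because it was low in SZ, where Alox5 and Alox5ap were high. Each is printed on the strand of its gene up to the annotated start. Alox12 lies on the minus strand at chr10:55469240-55469449, Ptgs1 on the plus strand at chr3:39981169-39981418 and Ptgs2 on the plus strand at chr13:64713813-64714062. Capitals mark matches on either strand to the letters of the TATA box (TATAAA), the GC box (GGGCGG), the CCAAT box (CCAAT), the E-box (CACGTG) or the AP-1 site (TGANTCA), none of which overlap here.
Alox12: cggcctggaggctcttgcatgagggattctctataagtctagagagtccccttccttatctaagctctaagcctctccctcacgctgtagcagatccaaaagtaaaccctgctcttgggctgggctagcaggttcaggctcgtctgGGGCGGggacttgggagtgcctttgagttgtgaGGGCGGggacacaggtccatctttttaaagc
Ptgs1: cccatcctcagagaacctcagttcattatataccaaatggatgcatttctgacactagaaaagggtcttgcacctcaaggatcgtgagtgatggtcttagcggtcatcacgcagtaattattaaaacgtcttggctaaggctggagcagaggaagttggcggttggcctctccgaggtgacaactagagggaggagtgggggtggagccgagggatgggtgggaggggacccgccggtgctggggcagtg
Ptgs2: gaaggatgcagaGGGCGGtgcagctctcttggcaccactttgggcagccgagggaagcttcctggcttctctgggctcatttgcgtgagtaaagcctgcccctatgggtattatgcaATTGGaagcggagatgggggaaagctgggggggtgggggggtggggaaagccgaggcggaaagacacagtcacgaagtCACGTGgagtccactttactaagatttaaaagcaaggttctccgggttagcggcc
The Alox12 stretch, cut to 210 bases where the annotated gene begins, held 2 GC boxes, and its full window held 3, the last of them closest to the RefSeq start. The full 250 bases of Ptgs2 held 1 GC box, 1 CCAAT box and 1 E-box, and those of Ptgs1 held no match to any of the 5 motifs. Of all 33469 promoters in the RefSeq table, 12.9% held the TATA box letters in the 250 bases before the start, 30.5% the GC box, 34.0% the CCAAT box, 5.59% the E-box and 6.34% the AP-1 site. A GC box stood in 5 of the 6 available windows, those of Alox12, Alox5, Ptgs2, Ptges and Ptgds. No window held a TATA box or an AP-1 match. These letters are a description of the sequence and say nothing of factor binding.

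Most of the 9 genes differed between the articular zones, and most of those had more signal at the joint surface. All differences below are log2 differences between zone means, given as the higher minus the lower zone with the standard error of limma, and a gene passed at a Benjamini-Hochberg adjusted p under 0.05 over all 27342 clusters. Against IDZ, 6 of the 9 genes were higher in SZ (Alox5, Alox5ap, Ptgs1, Ptgs2, Ptges and Ptgis), beside 11.8% of all clusters, and 2 were lower in SZ (Alox12 and Ptgds), beside 11.2%. With a minimum of 2-fold, 3 remained higher in SZ (Alox5ap, Ptgs1 and Ptgis), beside 2.96% of clusters, and 1 in IDZ (Alox12), beside 0.977%. In 8 of the 9 the arrays of the 2 zones did not overlap, beside 22.3% of all clusters. The median SZ minus IDZ difference of the 9 genes was 0.54, and that of all clusters was -0.08. All clusters, here and below, include 11951 with no symbol and many that are dim in every zone, so they differ from a set of named genes.

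The same genes were compared between the articular zones and the growth plate. From IDZ to RZ, 1 gene was higher in IDZ (Ptgds), beside 2.78% of clusters, and 3 in RZ (Ptgs1, Ptgs2 and Ptgis), beside 3.95%. At 2-fold, Ptgds remained, beside 0.519% of clusters, and 0 genes remained on the RZ side, beside 0.399%. Arrays did not overlap in 4 of the 9 genes, beside 20.2%. From SZ to RZ, 5 genes were higher in SZ (Alox5, Alox5ap, Ptgs1, Ptges and Ptgds), beside 10.0% of clusters, and 1 in RZ (Alox12), beside 11.1%. Alox5ap was the 1 gene at 2-fold in SZ, beside 3.19%, and Alox12 the 1 gene at 2-fold in RZ, beside 1.35%, and arrays did not overlap in 6 of the 9 genes, beside 22.0%. The 3 comparisons share arrays, since every zone enters 2 of them, so they are not independent of each other. Centring the arrays on their 1000 brightest clusters moved the share of calls that were higher in SZ from 51.3% to 70.2% against IDZ and from 47.6% to 65.6% against RZ, while the number of the 9 genes in each direction stayed within 1.

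**Figure D1:**
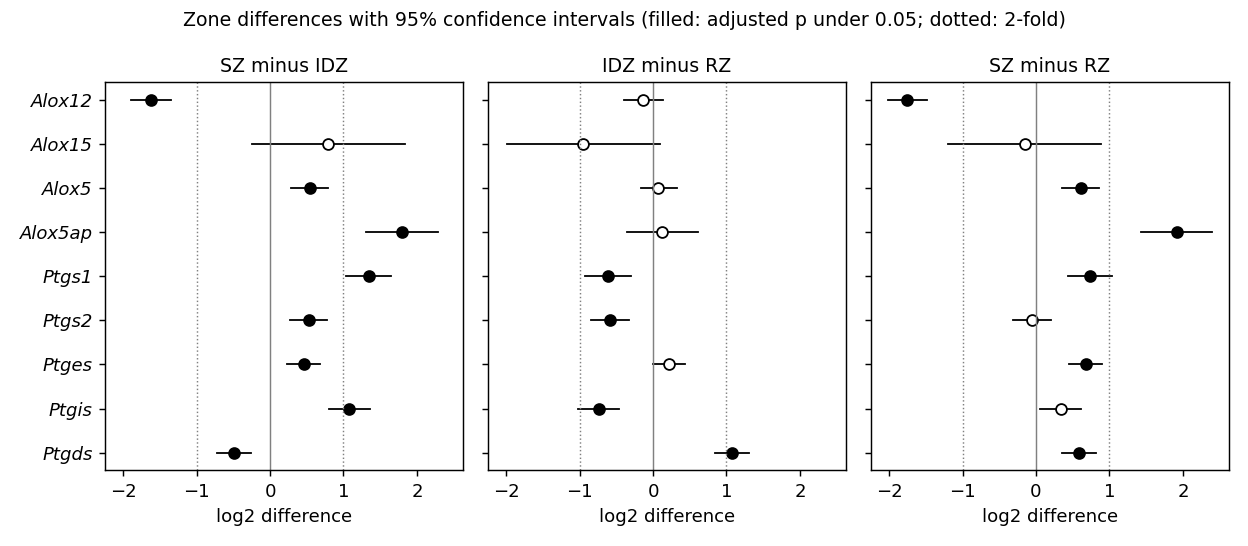
Log2 differences of the 9 genes in the 3 zone comparisons, with 95% confidence intervals. Filled points passed at an adjusted p under 0.05, open points did not, the solid line is 0 and the dotted lines are 2-fold. Alox12 is the only gene well below 0 in both comparisons with SZ, Alox5ap is the highest in both, and Ptgds is the only gene that passed on the IDZ side against RZ.

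Alox12, which makes the hydroxy fatty acid 12-HETE and is the lipoxygenase of platelets, was the gene that was low at the joint surface. Its log2 signal was 5.93, 6.07, 6.28 and 5.74 on the SZ arrays, 7.60, 7.74, 7.58 and 7.57 on the IDZ arrays and 8.03, 7.66, 7.53 and 7.82 on the RZ arrays. All SZ arrays lay below all others, and the IDZ and RZ arrays overlapped. IDZ exceeded SZ by 1.62 ± 0.13 (3.07-fold, adjusted p = 2.6e-07) and RZ exceeded SZ by 1.75 ± 0.13 (3.37-fold, adjusted p = 6.0e-08). Between IDZ and RZ the difference was 0.13, with a 95% interval from -0.13 to 0.40 (adjusted p = 0.64). The values carry no detection call, so whether Alox12 was above background in SZ cannot be told and the fold is as measured. Alox12 was also the only gene of the 9 that still passed against a 2-fold null in both comparisons with SZ.

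Platelet markers were few among the clusters with a single symbol. Of 11 platelet and megakaryocyte genes 5 had a cluster, their mean signal lay at 6.33 to 6.79 in SZ, 6.38 to 6.61 in IDZ and 6.22 to 6.83 in RZ, and 1 of the 5, the platelet chemokine gene Pf4, passed, at 6.71 in SZ, 6.18 in IDZ and 6.19 in RZ. Itga2b, which defines the megakaryocyte line, had no cluster of its own symbol here, and the part of platelets in the Alox12 signal was not tested.

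Alox15, the 12/15-lipoxygenase first known from reticulocytes, where it takes part in the breakdown of organelles, varied more between arrays of a zone than between zones. Its signal was 9.97, 10.29, 9.44 and 8.25 in SZ, 8.19, 8.05, 9.17 and 9.36 in IDZ and 8.46, 10.83, 10.02 and 9.24 in RZ. Every zone overlapped the others, and the within-zone SD of 0.87 compares with 0.14 to 0.39 for the other 8 genes. No comparison passed: SZ exceeded IDZ by 0.79, with an interval from -0.25 to 1.84 (adjusted p = 0.28), RZ exceeded IDZ by 0.95, from -0.10 to 1.99 (adjusted p = 0.32), and RZ exceeded SZ by 0.15, from -0.89 to 1.20 (adjusted p = 0.91). Differences of up to about 2 on the log2 scale are therefore within the intervals. Without SZ replicate 4, SZ exceeded IDZ by 1.21 and the gene passed (adjusted p = 0.045), and SZ then exceeded RZ by 0.26 (adjusted p = 0.71).

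Red cell genes moved with Alox15 from array to array. The mean of 5 erythroid genes with a cluster (Hbb, Alas2, Slc4a1, Ahsp and Klf1, of 7 listed) was lowest on SZ replicate 4, at 7.37, and highest on RZ replicate 2, at 9.92, the array where Alox15 was highest. Alox15 itself was lowest on IDZ replicates 2 and 1, at 8.05 and 8.19, and read 8.25 on SZ replicate 4. In IDZ the list stood at 7.74, 7.87, 8.72 and 9.10 on replicates 1 to 4, where the Alox15 values given above are low on the first pair and high on the second. None of the 5 erythroid genes passed in any comparison by limma, at an adjusted or an unadjusted p. Over all 12 arrays the genes closest to Alox15, by the root mean square difference of values centred on each gene's mean, were Hbb-b1, Alas2 and Hbb, each at 0.28. Neutrophil genes ran alongside, with list means from 5.95 to 7.24 and the highest again on RZ replicate 2. The part of blood and marrow cells in the Alox15 signal was not tested.

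**Figure D2:**
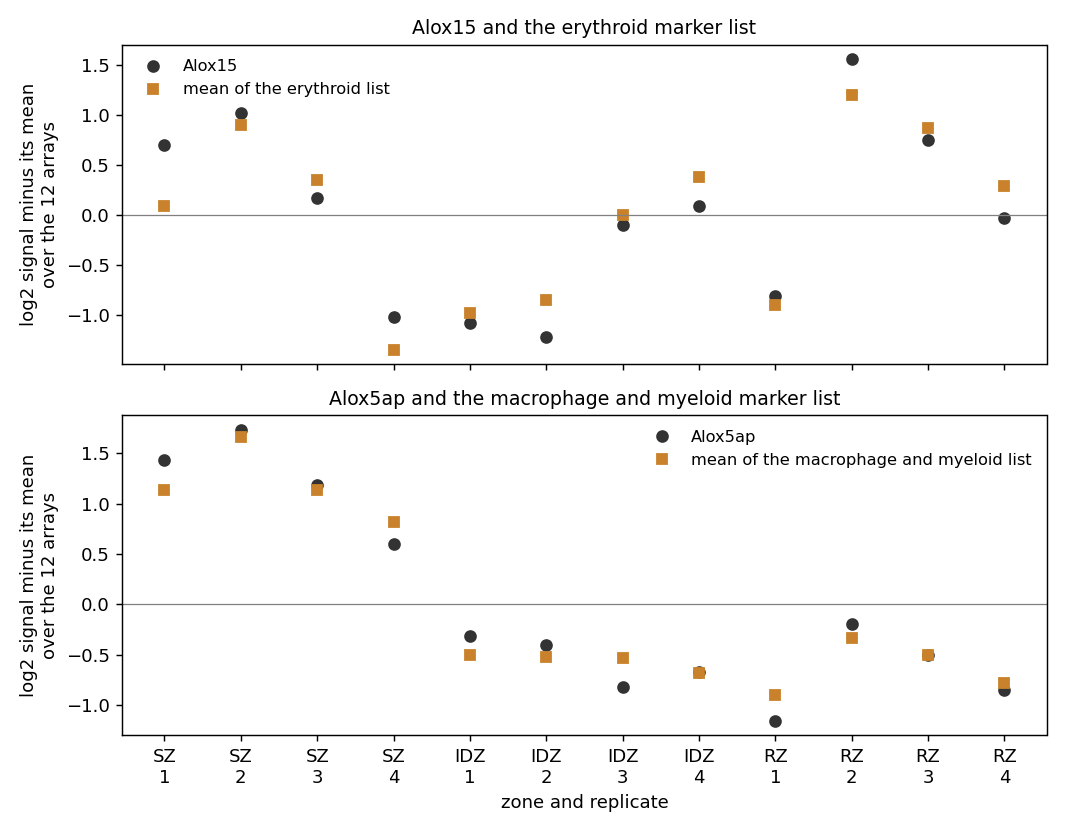
Log2 signal on each of the 12 arrays, minus its mean over the arrays, for Alox15 beside the mean of the 5 erythroid genes (above) and for Alox5ap beside the mean of the 15 macrophage and myeloid genes (below). The x axis gives zone and replicate. Alox15 and the erythroid list spread within every zone, whereas all 4 SZ arrays of Alox5ap and of the macrophage list lie above 0 and all other arrays below it.

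Both genes of the first step to leukotrienes were higher at the joint surface. Alox5ap, the membrane protein that hands arachidonic acid to 5-lipoxygenase, had a signal of 9.11, 9.41, 8.86 and 8.28 in SZ, 7.36, 7.27, 6.85 and 7.00 in IDZ and 6.52, 7.48, 7.17 and 6.82 in RZ. All SZ arrays stood above all others, with a gap from 7.48 to 8.28, and the IDZ and RZ arrays overlapped. SZ exceeded IDZ by 1.80 ± 0.23 (3.47-fold, adjusted p = 3.1e-05) and RZ by 1.92 ± 0.23 (3.78-fold, adjusted p = 1.3e-05). Between IDZ and RZ the difference was 0.12, with an interval from -0.36 to 0.61 (adjusted p = 0.83). SZ replicate 4 held the lowest of the SZ values, and without it the differences were 2.01 and 2.13.

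Alox5 itself, the 5-lipoxygenase that starts leukotriene synthesis, followed the same order with a smaller difference. The signal was 6.55, 6.64, 6.28 and 6.66 in SZ, 6.11, 5.85, 6.15 and 5.89 in IDZ and 5.68, 6.04, 6.03 and 5.93 in RZ. The SZ arrays again lay above all others, here by a gap from 6.15 to 6.28. SZ exceeded IDZ by 0.54 ± 0.12 (1.45-fold, adjusted p = 0.0032) and RZ by 0.61 ± 0.12 (1.53-fold, adjusted p = 0.0011), and the 0.07 between IDZ and RZ did not pass (adjusted p = 0.80). Alox5 was dim in IDZ and RZ, at means of 6.00 and 5.92, and has no detection call there, so its fold is as measured.

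Myeloid genes were high in the same arrays as Alox5ap and Alox5. All 15 macrophage and myeloid markers were higher in SZ than in IDZ and than in RZ, 12 of them by at least 2-fold, with list means of 8.01 to 8.85 in SZ, 6.51 to 6.69 in IDZ and 6.29 to 6.86 in RZ. Csf1r, the receptor that macrophages need to survive, averaged 9.80 in SZ, 7.37 in IDZ and 7.14 in RZ, Cd68 averaged 8.94, 7.34 and 7.43, and the pan-leukocyte gene Ptprc 7.24, 5.79 and 5.89. Alox5ap and the macrophage list were both highest on SZ replicate 2, both lowest in SZ on replicate 4, and both lowest in RZ on replicate 1, but in IDZ the list was lowest on replicate 4 and Alox5ap on replicate 3. Alox5 was highest in SZ on replicate 4, at 6.66, where the macrophage list was lowest in SZ. That array had the narrow interquartile range given above. Genes of distant organs also read high there, at a list mean of 6.26 against 5.71 to 5.84 on the other SZ arrays. The part of macrophages in the SZ signal of Alox5ap and Alox5 was not tested.

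**Figure D3:**
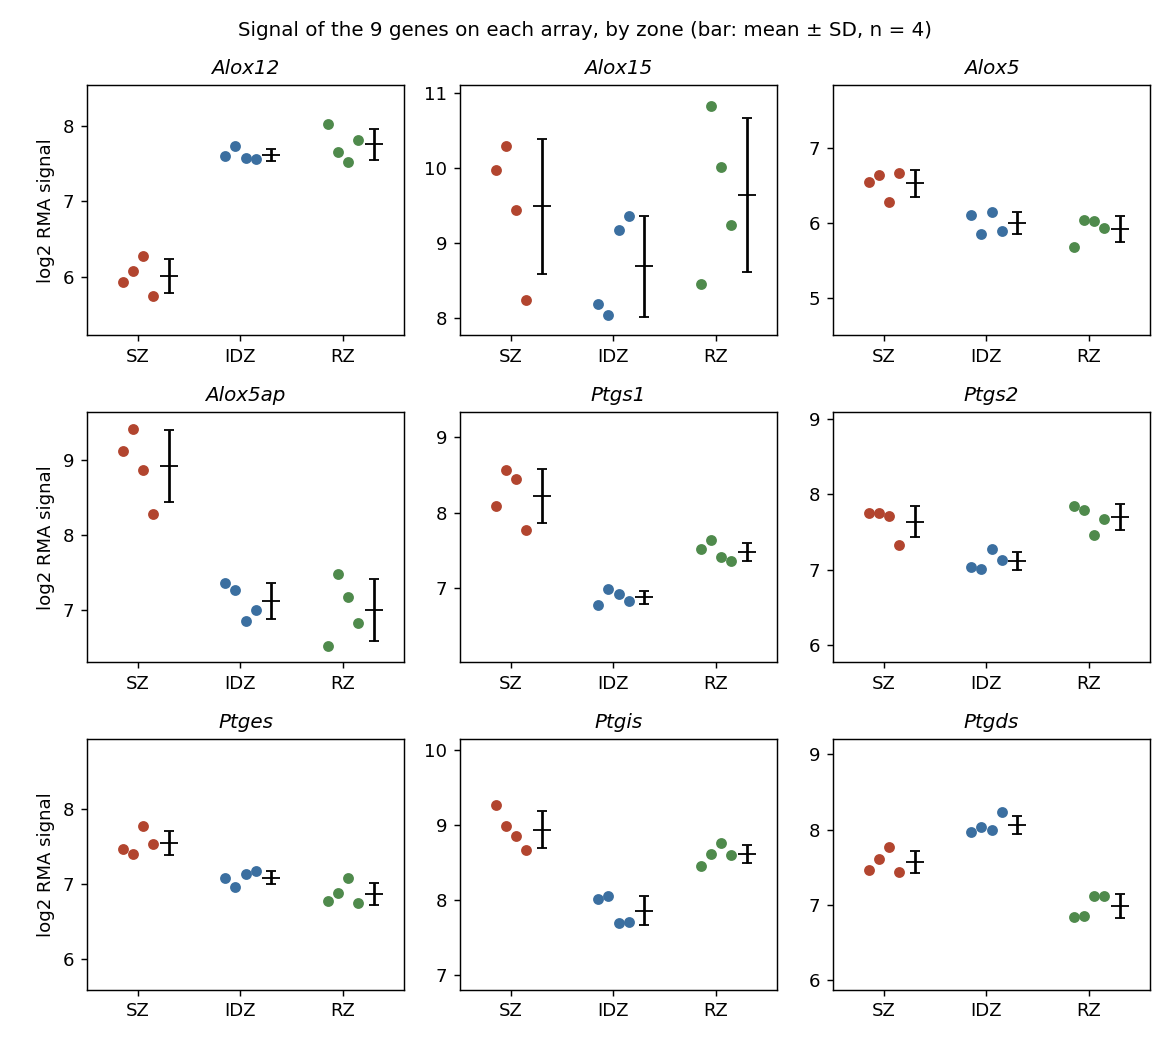
Log2 signal of each of the 9 genes on the 12 arrays, by zone (SZ, IDZ, RZ). Points are arrays, bars are the mean ± SD of 4 arrays, and every panel spans the same log2 range around its own gene. Alox12 is low in SZ, Alox5ap high in SZ, Ptgs1, Ptgs2 and Ptgis are lowest in IDZ, Ptgds is highest in IDZ, and Alox15 spreads widely in every zone.

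Both cyclooxygenases were lowest in IDZ. Ptgs1, the constitutive isoform, had a signal of 8.09, 8.57, 8.44 and 7.77 in SZ, 6.77, 6.98, 6.92 and 6.82 in IDZ and 7.52, 7.63, 7.41 and 7.36 in RZ. The 3 zones did not overlap anywhere, in the order SZ, RZ, IDZ. SZ exceeded IDZ by 1.35 ± 0.15 (2.54-fold, adjusted p = 6.4e-06) and RZ by 0.74 ± 0.15 (1.66-fold, adjusted p = 0.0015). RZ exceeded IDZ by 0.61 ± 0.15 (1.53-fold, adjusted p = 0.019), a call that did not hold with the pair of animals as a block (adjusted p = 0.052).

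Ptgs2, the isoform induced by cytokines and growth factors, shared the low IDZ value but not the SZ excess over RZ. Its signal was 7.76, 7.76, 7.72 and 7.33 in SZ, 7.03, 7.01, 7.28 and 7.13 in IDZ and 7.85, 7.80, 7.46 and 7.68 in RZ. IDZ lay below both other zones without overlap. The excess over IDZ was 0.53 ± 0.12 in SZ (1.44-fold, adjusted p = 0.0043) and 0.58 ± 0.12 in RZ (1.50-fold, adjusted p = 0.0073), and the SZ and RZ means differed by 0.06, with an interval from -0.20 to 0.31 (adjusted p = 0.85). The Ptgs1 promoter printed above held none of the 5 motifs and that of Ptgs2 held 3 of them.

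Ptgis, the prostacyclin synthase of vessel walls, was also lowest in IDZ. The signal was 9.26, 8.99, 8.85 and 8.67 in SZ, 8.01, 8.05, 7.69 and 7.71 in IDZ and 8.46, 8.61, 8.76 and 8.60 in RZ. IDZ arrays lay below all others, and SZ and RZ overlapped. SZ exceeded IDZ by 1.08 ± 0.13 (2.11-fold, adjusted p = 1.9e-05), RZ exceeded IDZ by 0.74 ± 0.13 (1.67-fold, adjusted p = 0.0023), and SZ exceeded RZ by 0.34, with an interval from 0.06 to 0.61, which did not pass (adjusted p = 0.085) but did without SZ replicate 4 (0.43, adjusted p = 0.015).

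A second Ptgis cluster gave a different picture of the growth plate. It read 7.67, 7.76, 7.50 and 7.38 in SZ, 7.06, 7.03, 6.98 and 7.24 in IDZ and 7.11, 7.34, 6.99 and 7.14 in RZ. There SZ exceeded IDZ by 0.50 (adjusted p = 0.0031) and RZ by 0.43 (adjusted p = 0.0085), but RZ exceeded IDZ by only 0.07 (adjusted p = 0.80). Both clusters thus put SZ above IDZ, but only the first reached 2-fold (2.11-fold against 1.41-fold). The 2-fold call and the RZ position of Ptgis rest on which cluster is read.

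Ptges, the inducible microsomal synthase of prostaglandin E, was higher in SZ than in both deeper zones. The signal was 7.46, 7.40, 7.77 and 7.53 in SZ, 7.08, 6.96, 7.13 and 7.17 in IDZ and 6.77, 6.87, 7.07 and 6.74 in RZ. All SZ arrays were above the rest, and IDZ and RZ overlapped. SZ exceeded IDZ by 0.46 ± 0.10 (1.37-fold, adjusted p = 0.0049) and RZ by 0.68 ± 0.10 (1.60-fold, adjusted p = 1.8e-04), and the 0.22 between IDZ and RZ did not pass (adjusted p = 0.27). With the pair of animals as a fixed block, the SZ excess over IDZ was 0.40 and did not pass (adjusted p = 0.062).

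Ptgds, the lipocalin-type synthase of prostaglandin D and a secreted carrier of lipids, was the only gene of the 9 with its highest signal in IDZ and no overlap with either neighbor. The signal was 7.46, 7.61, 7.77 and 7.44 in SZ, 7.97, 8.03, 8.00 and 8.24 in IDZ and 6.83, 6.85, 7.11 and 7.12 in RZ. The 3 zones did not overlap, in the order IDZ, SZ, RZ. IDZ exceeded RZ by 1.08 ± 0.11 (2.12-fold, adjusted p = 1.4e-05) and SZ by 0.49 ± 0.11 (1.40-fold, adjusted p = 0.0037), and SZ exceeded RZ by 0.59 ± 0.11 (1.51-fold, adjusted p = 7.8e-04).

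Vessel and fibrous tissue genes were high in SZ beside Ptgs1, Ptges and Ptgis. Of 8 endothelial markers 7 were higher in SZ than in IDZ, with list means of 8.49 to 9.05 in SZ, 6.61 to 6.96 in IDZ and 6.45 to 6.66 in RZ, and Cdh5, the cadherin of endothelial junctions, averaged 9.47, 7.16 and 6.73. Mural cell markers stood at 8.91 to 9.36, 7.25 to 7.62 and 7.31 to 7.48, with 8 of 9 higher in SZ. The 1 other, Cspg4, was lower in SZ than in both zones, at 10.30, 10.67 and 10.90. Rgs5, which marks pericytes, averaged 11.59, 7.68 and 7.09. Fibroblast and tendon markers stood at 11.11 to 11.55, 8.73 to 9.25 and 7.50 to 7.93, with 10 of 11 higher in SZ. Col1a1, the chain of bone and tendon collagen, averaged 13.74, 11.81 and 10.99, and Dpt, a dermal and fibrous matrix protein, 11.03, 7.42 and 5.64. Higher in RZ than in IDZ was 1 gene of these lists, the muscle filament gene Des. On the other side, 5 of the 11 fibroblast and tendon genes were higher in IDZ than in RZ, all 5 by at least 2-fold. These were Col1a2, Col3a1, Dpt, Postn and Fap. The part of vessel and fibrous tissue in the SZ and RZ signals of the prostaglandin genes was not tested.

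Genes of further cell types were tied to the zones in several ways. The 3 joint surface genes with a cluster were higher in SZ by at least 2-fold in both comparisons, with list means of 10.30 to 10.60 in SZ, 7.22 to 8.30 in IDZ and 6.17 to 6.93 in RZ, and 1 of them, Prg4, guided the cutting. Of 4 osteoclast genes 3 stood higher in SZ, both against IDZ and against RZ, with Ctsk, a bone collagen protease, averaging 10.61, 8.40 and 8.53. Mast cell list means lay at 5.29 to 5.40 in SZ, 5.20 to 5.29 in IDZ and 5.20 to 5.30 in RZ. Of 9 mast cell genes 1 was higher in SZ than in IDZ and 1 lower. Against RZ, 3 were higher in SZ (Cpa3, Cma1 and Tpsab1) and 1 lower (Kit). The defining genes disagreed, Cpa3 averaging 5.43, 4.30 and 4.28 and Kit 6.29, 7.16 and 7.34. The mast cell list means lay below those of the distant organ genes given last in this paragraph. With no detection calls, the differences of dim mast cell genes such as Cpa3 are as measured. Of 7 hypertrophic chondrocyte genes 3 were higher in RZ than in IDZ and 6 higher in RZ than in SZ, and the seventh, the collagenase gene Mmp13, was higher in SZ, at 11.75 against 9.46 in IDZ and 8.72 in RZ. Panx3, a channel of maturing chondrocytes, averaged 7.94 against 6.49 in IDZ and 6.44 in SZ, and Col10a1, the collagen of hypertrophic cartilage, averaged 6.99 in SZ, 7.81 in IDZ and 8.30 in RZ, and was likewise used as a guide for the cutting. Of 6 osteoblast genes 2 were higher in RZ than in IDZ, Alpl, a phosphatase of mineralizing cells, by 1.59 and Ibsp, a bone matrix protein, by 1.55, with list means of 7.00 to 7.87 in SZ, 6.71 to 7.05 in IDZ and 7.36 to 8.03 in RZ. Genes of organs far from the joint had list means of 5.71 to 6.26 in SZ, 5.95 to 6.01 in IDZ and 5.82 to 5.99 in RZ, the highest again on SZ replicate 4. The part of any of these cells in the signals of the 9 genes was not tested.

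The other genes of the eicosanoid pathway were also mostly higher in SZ where they differed. Of 78 listed genes 67 had a cluster. Against IDZ, 22 were higher in SZ and 2 in IDZ, against RZ 20 were higher in SZ and 3 in RZ, and between IDZ and RZ 2 were higher in IDZ and 4 in RZ, to be read beside the shares of all clusters given above. By group, the genes higher in SZ than in IDZ were 6 of 18 for arachidonate release, 2 of 9 for other lipoxygenases and leukotriene enzymes, 5 of 10 for other prostanoid synthases and reductases, 2 of 6 for prostaglandin uptake and inactivation, 2 of 9 for the epoxygenase branch, 3 of 9 for prostanoid receptors and 2 of 6 for leukotriene and lipoxin receptors. The 2 genes higher in IDZ were 1 for arachidonate release and 1 for uptake and inactivation. These groups are broader than their names. The SZ calls for arachidonate release included Plaa and Mboat7, which puts arachidonate back into phospholipids. Those for prostanoid receptors included Ptgfrn, and those for leukotriene and lipoxin receptors included Cmklr1. Neither call of the epoxygenase branch was an epoxygenase. The median differences were 0.12 for SZ minus IDZ, 0.09 for SZ minus RZ and 0.04 for IDZ minus RZ. Higher in IDZ than in SZ were thus 2.99% of the 67, beside 11.2% of all clusters. Without SZ replicate 4 the number was 9, or 13.4%, beside 23.5% of all clusters. Another fit kept all arrays and only the 18992 clusters with a mean of at least 6 in some zone. There 2980 clusters were higher in IDZ and 3245 in SZ.

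Release of arachidonic acid ran in more than 1 direction. Pla2g4a, the cytosolic phospholipase that feeds the cyclooxygenases, was highest in the growth plate, at 8.43, 8.41, 8.55 and 7.79 in SZ, 7.93, 7.59, 7.85 and 7.82 in IDZ and 9.37, 9.22, 9.15 and 9.48 in RZ. RZ arrays lay above all others, and RZ exceeded IDZ by 1.51 ± 0.15 (2.85-fold, adjusted p = 1.0e-05). Pla2g5, a secreted phospholipase, was low in SZ like Alox12, at 7.73 ± 0.28 in SZ, 9.74 ± 0.24 in IDZ and 9.50 ± 0.05 in RZ (SD, n = 4). IDZ exceeded SZ in Pla2g5 by 2.01 ± 0.14 (4.01-fold, adjusted p = 7.9e-08), and this gene too is on a list of the study from these arrays. Mgll, which frees arachidonic acid from a monoglyceride, exceeded IDZ in SZ by 1.33 (2.52-fold, adjusted p = 1.2e-06).

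Prostaglandin D has a second synthase, and it ordered the articular zones the other way from Ptgds. Hpgds, the synthase of mast cells, macrophages and other blood-derived cells, had a signal of 7.81, 7.87, 7.72 and 6.92 in SZ, 5.20, 5.07, 5.24 and 4.76 in IDZ and 5.03, 5.19, 5.16 and 4.73 in RZ. SZ arrays stood far above the rest, and SZ exceeded IDZ by 2.51 ± 0.19 (5.71-fold, adjusted p = 1.6e-07), where Ptgds was higher in IDZ. Hpgds was dim in IDZ and RZ and has no detection call there, so its fold is as measured. Gstm2, a glutathione transferase, was low in RZ, at 6.22 ± 0.02 against 7.29 ± 0.22 in IDZ and 7.42 ± 0.48 in SZ (SD, n = 4).

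Uptake, receptors and the group named epoxygenase branch added SZ-high genes. Against IDZ the calls of that group, Ephx1 and Cyp4f5, were not epoxygenases. Of its Cyp2j genes, Cyp2j4 passed only against RZ, by 0.55 (adjusted p = 0.012), and Cyp2j3 passed in no comparison. Slco2a1, the carrier that takes prostaglandins into cells, was 1.50 higher in SZ than in IDZ (2.84-fold, adjusted p = 1.3e-04), and Ephx1, an epoxide hydrolase, 1.46 (2.74-fold, adjusted p = 2.7e-05). Cyp4f5, a fatty acid hydroxylase, reached 2-fold against RZ, by 1.06. Cmklr1, a receptor for chemerin and resolvin E, fell in steps, at 9.57 ± 0.13 in SZ, 8.61 ± 0.06 in IDZ and 7.88 ± 0.12 in RZ (SD, n = 4), and all 3 of its comparisons passed. Ptgfrn, a membrane protein that associates with the prostaglandin F receptor, was 1.02 higher in SZ than in IDZ (adjusted p = 3.9e-05).

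The receptors for prostaglandin E differed little as measured, and their values carry no detection call. Ptger4 was higher in SZ by 0.70 than in IDZ (1.63-fold, adjusted p = 2.7e-04) and by 0.60 than in RZ (adjusted p = 9.7e-04), on 6.86, 6.70, 6.43 and 6.51 in SZ against at most 6.13 elsewhere. Ptger1 passed only against RZ, by 0.30 (adjusted p = 0.048), on 7.21, 6.90, 7.04 and 7.33 in SZ, the highest on replicate 4. Ptger2 differed between SZ and IDZ by 0.29 (adjusted p = 0.18) and Ptger3 by 0.00 (adjusted p = 0.98), and neither passed in any comparison. Their means in SZ, IDZ and RZ were 6.54, 6.25 and 6.37 for Ptger2 and 6.21, 6.22 and 6.23 for Ptger3. These lie below the array medians, so equal expression and no expression cannot be told apart.

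**Figure D4:**
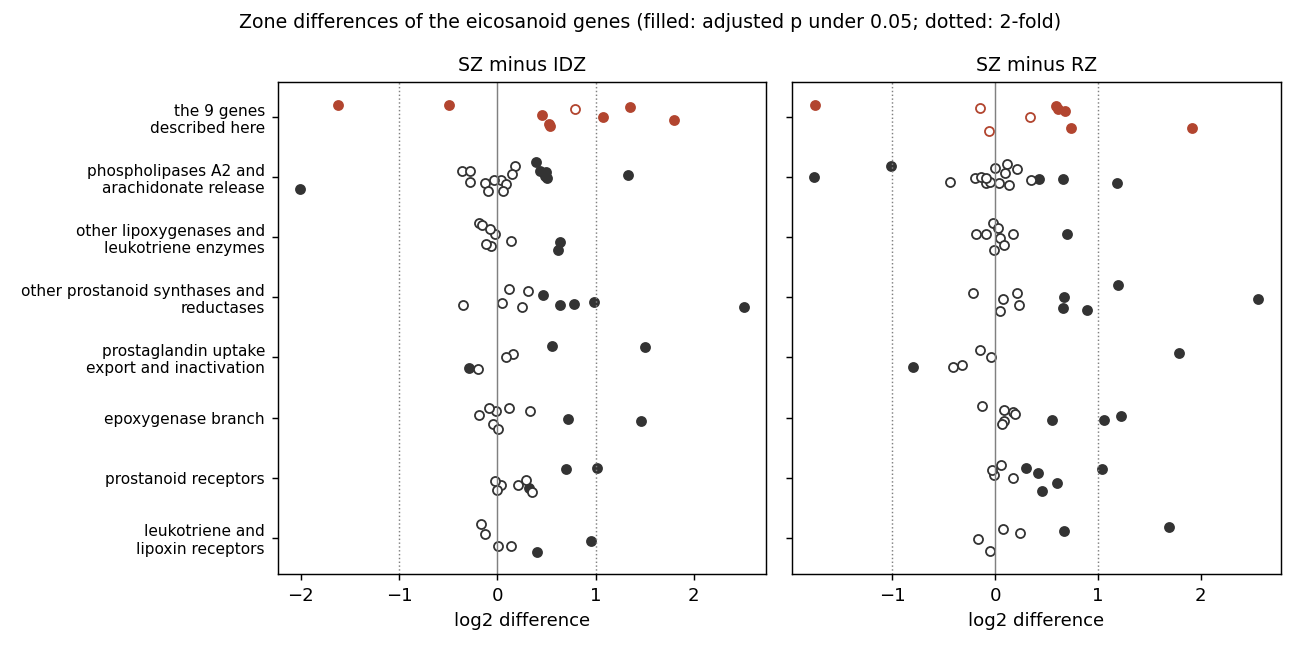
Log2 differences of SZ against IDZ (left) and against RZ (right) for the 9 genes (red) and for the 67 other eicosanoid genes by group (black), each point 1 gene. Filled points passed at an adjusted p under 0.05, and dotted lines are 2-fold. Hpgds lies farthest to the right in both panels, and Pla2g5 and Alox12 farthest to the left.

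The genes with the most similar pattern were found by the smallest root mean square difference over the 12 arrays, after each gene was centred on its own mean, for each of the 5 genes with a 2-fold call. Closest to Alox12 were Gpt2 at 0.13, an alanine aminotransferase of mitochondria, then Zfp385b at 0.15 and Pcsk6 at 0.15, a proprotein convertase. For Alox5ap they were Tp53i11 at 0.16, the potassium channel subunit Kcne3 at 0.17 and Kitlg at 0.18, the ligand of the Kit receptor. Ptgs1 ran closest to Pnpla2 at 0.12, which cleaves stored triglyceride, Sox4 at 0.13 and Prtfdc1 at 0.16. Ptgis, read from its brightest cluster alone, ran closest to the thymidylate synthase gene Tyms, the cyclin gene Ccna2 and Septin4, each at 0.16. Ptgds was nearest to the growth hormone receptor Ghr at 0.11, then to Fibin at 0.12 and Mdga1 at 0.12. For Alox5 the same measure, applied after its values were seen, gave Kcna3 at 0.07 and Dock2 at 0.08, and gave the globin and heme genes already named for Alox15. The 12 arrays behind these differences share 3 zones, so genes of 1 zone order lie close by construction.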

How the data were processed

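The authors measured RNA on Affymetrix Rat Gene 1.0 ST arrays and deposited log2 values. Per the study's methods these came from Partek (version 6.6), where the robust multi-array average removed background, equalized array distributions by quantiles and summarized the probes of each cluster by median polish. They were used as deposited. The annotation names 1 symbol for 15068 of 27342 clusters. The second cluster of Ptgis was an alternative.

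The test was limma (version 3.58.1 in R 4.3.3), fitted to all 12 arrays with a mean for every zone, with moderated variances and Benjamini-Hochberg adjustment over all clusters within a comparison. The study's threshold of 2-fold is given beside the 0.05 threshold. Named were the 9 genes, the pathway genes that passed at 2-fold, Ptger1 to Ptger4, the 3 nearest genes of each of the 9 with a 2-fold call, and defining cell type markers. The genes, lists and tests were chosen with earlier results of these data known. IDZ and RZ samples of 1 number come from the same 2 animals per the labels, SZ shares animals with IDZ and RZ replicates 3 and 4, and the block is the pair of animals. The IDZ and RZ deviations correlated at 0.0184 to 0.205 over clusters. On simulated data with SZ minus IDZ shifts, 41 of 50 clusters shifted 2-fold and 30 of 50 shifted 1.5-fold passed among 27342, and 9 unshifted ones. There only a small part of the clusters was shifted, and each cluster had the same spread in every zone. In the data 11.8% and 11.2% of clusters passed between SZ and IDZ, so these rates do not give the power for the 9 genes. The number of arrays limits the precision. Tables and plots used Python 3.11.15, pandas 2.3.3 and matplotlib 3.10.9. Alternatives were other variance models, filters, centrings, blocks by pair of animals, a test against 2-fold and leaving out each array.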

Additional observations from a re-analysis of the deposited data

Results flagged for a closer look

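Of 69 combinations of a gene and a zone, 3 (4.35%) had 1 array far from the other 3 by Dixon's ratio, where chance gives about 1 in 20. Ptgs2 on SZ replicate 4 read 7.33, and the other SZ arrays read 7.72 to 7.76. Hpgds on SZ replicate 4 read 6.92, and the other SZ arrays 7.72 to 7.87. Ptger3 on RZ replicate 3 read 6.48, and the other RZ arrays 6.11 to 6.17.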

How the results depend on the processing

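Over all alternatives, 591 values of single genes kept their direction and their side of the threshold, 23 lost the call, 4 gained it and 6 turned. Those that turned had no call: leaving out 1 array at a time gave IDZ minus RZ from -0.0048 to 0.12 for Alox5 and from -0.04 to 0.28 for Alox5ap, and SZ minus RZ from -0.55 to 0.26 for Alox15 and from -0.13 to 0.05 for Ptgs2, which was also 0.05 when arrays were centred on the 1000 brightest clusters. The IDZ to RZ call of Ptgs1 was lost with plain one-way contrasts (adjusted p = 0.069) and without IDZ replicate 1 (0.064), IDZ replicate 4 (0.051), RZ replicate 1 (0.057) or RZ replicate 2 (0.067). Ptgis passed between SZ and RZ with that centring too (0.44, adjusted p = 0.023). Against a 2-fold null, calls remained for Alox12 against SZ in both zones and for Alox5ap between SZ and RZ (adjusted p = 0.028), and Alox5ap between SZ and IDZ did not pass (adjusted p = 0.10). The fixed block by pair of animals changed the calls of Ptges and Ptgs1 given above and of no other of the 9 genes. The random block changed no call of the 9 genes, but its estimated correlation within pairs was -0.141. That fit is therefore a weak check on the sharing of animals.

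The minimum of 2-fold as well was, for the other eicosanoid genes, an alternative chosen after seeing the data. The counts of the 9 genes were then 3 and 1 for SZ and IDZ, 1 and 0 for IDZ and RZ, and 1 and 1 for SZ and RZ. Those of the other genes were 5 and 1, 1 and 1, and 8 and 2. Of all clusters, 2.96% and 0.977% passed in this way for SZ and IDZ, 0.519% and 0.399% for IDZ and RZ, and 3.19% and 1.35% for SZ and RZ. Against a 2-fold null the 9 genes gave 0 and 1, 0 and 0, and 1 and 1, and the other genes 1 and 1, 0 and 0, and 2 and 1. Of all clusters that test called 1.18% and 0.241% for SZ and IDZ, 0.124% and 0.0987% for IDZ and RZ, and 1.66% and 0.454% for SZ and RZ. The other genes higher in IDZ than in SZ numbered 1 with trended variances, with only the 2 zones compared, with either centring and with either replicate block, and 1 to 9 when 1 array was left out, the 9 without SZ replicate 4. Those higher in RZ than in IDZ numbered 8 with only the 2 zones compared and 3 to 8 when 1 array was left out, and those higher in RZ than in SZ 3 to 6, the highest of both without SZ replicate 4. Calls over all clusters rose too. With only the 2 zones compared, 2435 of 27342 clusters were higher in RZ than in IDZ, beside 1080 in the main fit. Without SZ replicate 4 the share was 8.61%, beside 3.95%, and for RZ over SZ it was 15.3%, beside 11.1%. The cause of these changes was not tested. The precision is that of 4 arrays a zone, with no detection calls for dim genes.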
